A study of Mus musculus with 24 samples.

Results

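The insulin-like growth factor 1 (IGF1) axis and its binding proteins are described here by 9 genes measured in the embryonic mouse jaw with and without the TGF-beta receptor ALK5 in neural crest cells. They are Igf1, the ligand; Igf1r and Igf2r, the receptors; and Igfbp2, Igfbp3, Igfbp4, Igfbp5, Igfbp6 and Igfbp7, the binding proteins. They were chosen by name, from the probe sets (groups of short probes for 1 transcript) that the array annotation assigned to these symbols, and they make up 9 of 18193 genes on the array. The 9 genes had 26 probe sets of their own. Each gene is represented by its strongest probe set, judged by the average over the 24 arrays, and all 9 passed the filter on low signal.

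The samples came from mouse embryos of embryonic day 14.5 on a C57B6 background, bred by crossing Wnt1cre;Alk5fl/+ with Alk5fl/fl animals. Wnt1-Cre recombines floxed alleles in the neural crest lineage, which forms most of the jaw mesenchyme. The vessel endothelium, blood cells, muscle fibres and surface epithelium of a mutant jaw therefore keep Alk5. By this cross every embryo, control or mutant, carries at least 1 floxed Alk5 allele, and the labels give the genotype of the littermate controls only as control, with no Cre status. Clefting of the palate and a skull vault defect served to identify the mutants. Mandible and maxilla were each divided into a distal and a proximal end, labelled as bone compartments, which gives 8 groups of 3 arrays: control and mutant distal mandible, proximal mandible, distal maxilla and proximal maxilla. Nothing in the labels states that the arrays of a group are of different embryos, so p-values measure the spread between these samples, which may be technical.

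IGF1 is a growth factor of muscle, cartilage and bone. It acts through IGF1R, a receptor tyrosine kinase that relays to the PI3K-AKT and MAPK pathways, while IGF2R carries no kinase, takes up IGF2 and delivers it, with mannose 6-phosphate tagged enzymes, to lysosomes. The binding proteins hold IGFs in the extracellular space and can restrain or prolong their action, and proteases such as pappalysins cut them and set IGFs free. In skeletal tissue IGFBP5 binds bone matrix, and TGF-beta is known to regulate several binding proteins.

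Signals are log2 values after RMA (robust multi-array average, which corrects background, puts all arrays on a common distribution and summarises each probe set), so a difference of 1 is a doubling in signal. Array medians lay between 7.03 and 7.12, and the filter level of each array, its 40th percentile, between 6.33 and 6.47. A gene was called when its adjusted p from limma was under 0.05 among 13942 genes tested. Mandible markers (Hand2, Dlx5, Dlx6 and Hand1) were higher in the control mandible than in the control maxilla for 3 of 4 genes, and all 5 osteoblast markers measured were above the filter level in every control region. Tgfbr1, which encodes ALK5, was higher in mutants by 0.26 ± 0.044 (SE of the fit; adjusted p = 0.000146 from limma); where its probes lie relative to the floxed exon is not given here, so this value checks no label. In 2 arrays the mean correlation with another group was above that with their own: number 3 of the mutant distal maxilla and of the mutant proximal maxilla. The other group was the mutant mandible of the same end, at 0.976 against 0.9725 distally and 0.9811 against 0.9688 proximally. At a log2 signal of 8, both Xist and Y-linked transcripts were present on 8 of 12 mutant arrays and on 0 of 12 control arrays. The 4 other mutant arrays showed Xist alone, whereas 4 control arrays showed Xist alone and 8 showed Y-linked transcripts alone. The sex-linked make-up of the arrays thus differed between the genotypes. Its part in the genotype differences cannot be fully told apart from that of the genotype.

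In the mutant mandible, Igf1 and Igf2r were lower than in controls at both ends, by 0.72 to 0.84 on the log2 scale, and neither was called in the mutant maxilla. The distal Igf1 call ended without any 1 of its 6 arrays. Tested directly, the genotype effect on Igf1 was not called as different between the jaws (-0.53, adjusted p = 0.22 from limma). For Igf2r it was called, but that call ended in 13 of 24 omissions of a single array. Igfbp5 was higher in the mutant distal maxilla. Averaged over the 4 regions, Igf1, Igf2r, Igfbp3 and Igfbp7 were lower in mutants in the fit that counts all 24 arrays separately. After same-numbered arrays of a genotype were merged into a single value, Igf1 and Igfbp3 were not called (adjusted p = 0.0754 and 0.0862 from limma). The second Igfbp7 probe set did not share the fall, at 0.0014. Igfbp2 differed between the jaws in its response, with higher means in the mutant mandible and lower means in the mutant maxilla. Control jaws differed by region too: Igf1, Igf2r and Igfbp3 were higher in the mandible and Igfbp2 in the maxilla. Over the 8 group means, 7 of 9 genes spanned more than the median of all genes tested, which was 0.38, with Igf1 at 1.68 and Igfbp7 at 1.39 the widest and Igfbp4 at 0.15 the narrowest.

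**Figure D1:**
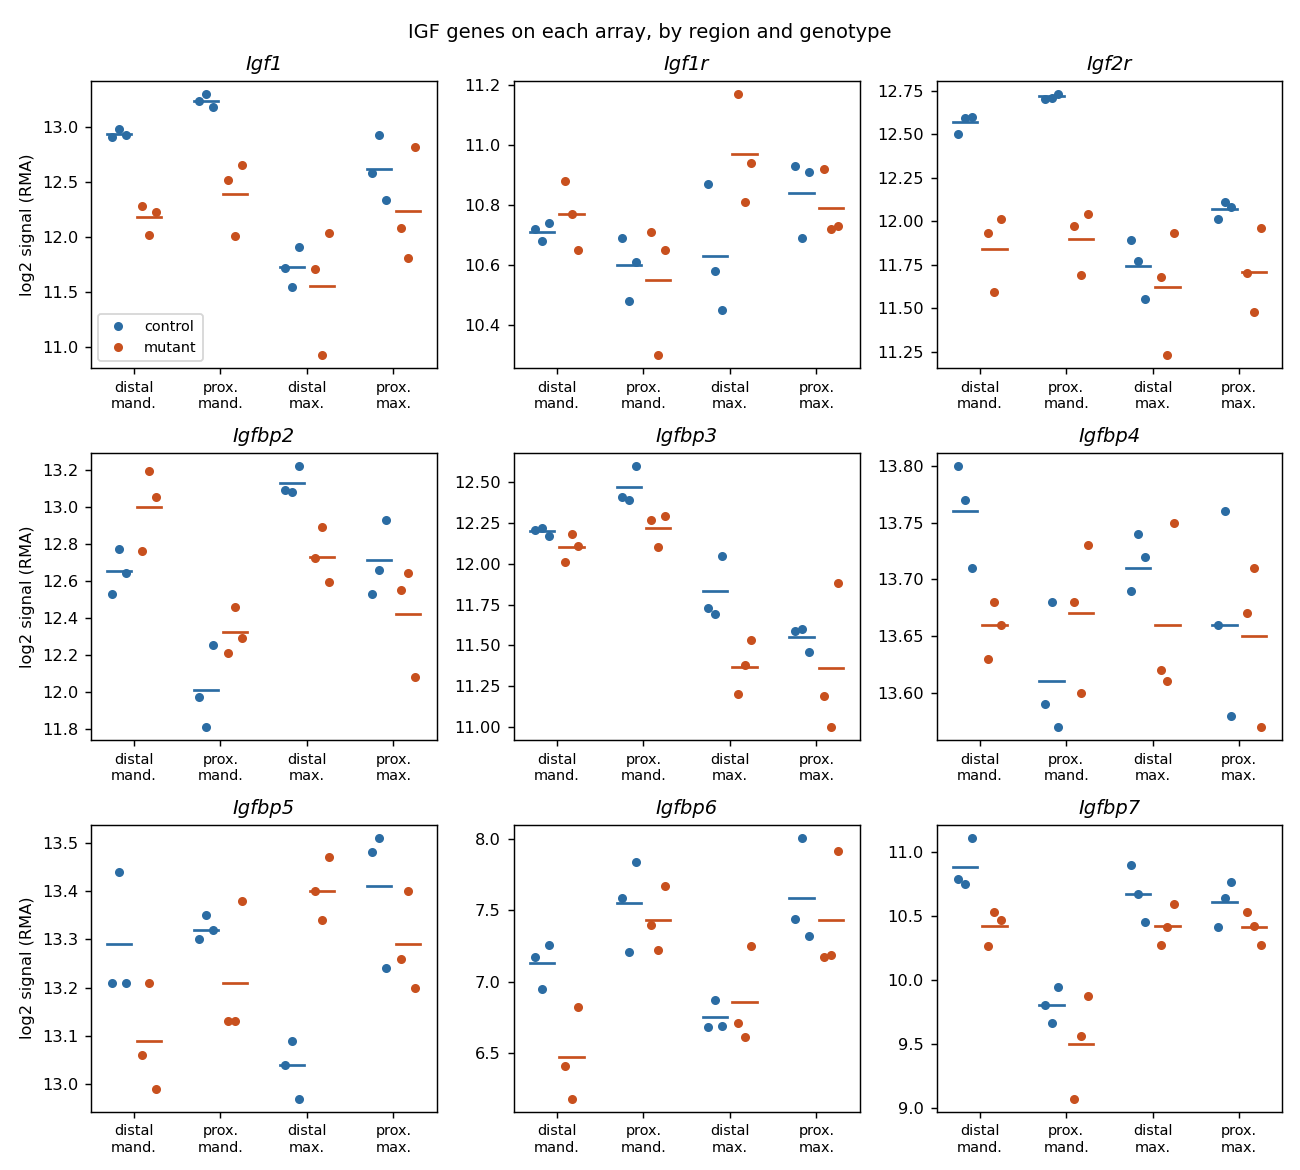
Log2 signal (vertical axis) of the 9 genes on each of the 24 arrays, by region (horizontal axis; mand., mandible; max., maxilla; prox., proximal) and genotype (blue, control; orange, mutant). Points are single arrays and lines are means of 3; the vertical scale differs between panels. All mutant mandible arrays of Igf1 lie between 12.01 and 12.66, below the control mandible arrays at 12.91 to 13.30.

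Promoters are shown for the pair that fell together in the mutant mandible, Igf1 and Igf2r. They are also shown for the chromosomal neighbours whose genotype effect was called as different between the jaws, Igfbp2 and Igfbp5. For Igfbp5 that call ended in 17 of 24 omissions of a single array. Each promoter is the run of 250 bases before the transcript start in RefSeq (GRCm38.p6), written 5′ to 3′ on the strand of the gene. All 9 genes matched, in 10 windows, since Igfbp2 has a pair of starts, of which only the downstream is shown. Capitals mark CAGAC, the core of the element bound by SMAD3 and SMAD4, or its reverse complement GTCTG.
Igf1 (chr10:87860861-87861110, plus strand): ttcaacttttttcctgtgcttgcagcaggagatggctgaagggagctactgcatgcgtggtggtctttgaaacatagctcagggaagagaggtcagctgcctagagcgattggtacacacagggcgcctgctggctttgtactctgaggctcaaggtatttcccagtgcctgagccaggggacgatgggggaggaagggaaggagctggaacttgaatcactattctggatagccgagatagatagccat
Igf2r (chr17:12769707-12769956, minus strand): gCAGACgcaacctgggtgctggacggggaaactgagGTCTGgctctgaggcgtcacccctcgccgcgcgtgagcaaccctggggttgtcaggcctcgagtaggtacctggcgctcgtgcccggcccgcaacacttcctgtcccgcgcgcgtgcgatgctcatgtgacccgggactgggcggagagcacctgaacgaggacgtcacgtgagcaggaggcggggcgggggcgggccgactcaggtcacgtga
Igfbp2, the downstream start (chr1:72825137-72825386, plus strand): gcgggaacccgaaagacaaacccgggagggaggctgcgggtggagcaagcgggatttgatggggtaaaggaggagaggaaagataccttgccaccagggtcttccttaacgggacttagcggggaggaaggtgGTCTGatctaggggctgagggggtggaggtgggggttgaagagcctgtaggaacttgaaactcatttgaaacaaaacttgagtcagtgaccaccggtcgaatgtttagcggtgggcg
Igfbp5 (chr1:72874866-72875115, minus strand): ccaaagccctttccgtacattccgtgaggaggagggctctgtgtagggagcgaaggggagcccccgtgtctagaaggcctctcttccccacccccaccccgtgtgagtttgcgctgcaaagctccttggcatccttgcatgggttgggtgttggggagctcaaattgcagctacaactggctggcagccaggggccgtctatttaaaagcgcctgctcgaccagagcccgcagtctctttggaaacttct
The SMAD core was found in 4 of 10 windows and in 42.2% of all 32851 promoter windows of this length. It lay 249 and 214 bases before the start of Igf2r, 117 before the downstream start of Igfbp2, 169 before that of Igf1r and 206 before that of Igfbp6. These letters were not in the window of the upstream Igfbp2 start, nor in those of Igf1, Igfbp3, Igfbp4, Igfbp5 and Igfbp7. The palindrome GGCGCC, searched as a GC-rich SMAD element, was in 1 of 10 windows, that of Igf1, and in 9.6% of all. The GC box GGGCGG (reverse CCGCCC) was in 4 of 10 and in 32.7% of all windows, and TATAAA (reverse TTTATA) in 2 of 10, those of Igfbp4 and Igfbp6, and in 12.4% of all. GC content was 52.8% in the Igf1 window, close to the median of 52.4% over all windows, and 69.2% in that of Igf2r. These matches are descriptions of the letters and not of binding.

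Igf1, the ligand, read 12.91, 12.98 and 12.93 on the control distal mandible arrays and 12.28, 12.02 and 12.23 on the mutant ones. The groups did not overlap, and all 3 mutant arrays lay below every control. The mean was 12.94 ± 0.039 in controls and 12.18 ± 0.14 in mutants (SD, n = 3 each), a fall by 0.76 ± 0.24 on the log2 scale (SE), or 1.70-fold (adjusted p = 0.0392 from limma). In the proximal mandible the controls read 13.24, 13.30 and 13.18 and the mutants 12.52, 12.01 and 12.66, again without overlap. Igf1 fell there by 0.84 ± 0.24 (SE), or 1.79-fold (adjusted p = 0.0184 from limma). The distal call ended without any 1 of its 6 arrays, at differences of -0.81 to -0.68 and adjusted p of 0.0655 to 0.138 from limma, and the proximal call ended without control array 2 (-0.81, adjusted p = 0.0616 from limma) or mutant array 2 (-0.65, adjusted p = 0.109 from limma). The distal call also ended with a score of sex-linked transcripts as a covariate (-0.69, adjusted p = 0.0611 from limma).

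In the maxilla Igf1 overlapped between the genotypes at both ends. The distal controls read 11.72, 11.55 and 11.91 and the mutants 11.71, 10.93 and 12.04, a difference of -0.17 with a 95% interval of -0.68 to 0.34. Proximally the controls read 12.58, 12.93 and 12.34 and the mutants 12.08, 11.81 and 12.82, a difference of -0.38 with an interval of -0.89 to 0.13. In each maxilla region the highest mutant value was that of array 3, the array closer to the mutant mandible of the same end. Without both of those arrays the differences were -0.41 distally (adjusted p = 0.227 from limma) and -0.67 proximally (adjusted p = 0.0596 from limma). The test of the genotype effect between the jaws gave -0.53 for Igf1, mandible minus maxilla (adjusted p = 0.22 from limma). The 4 Igf1 probe sets disagreed on this test: all 4 were below 0, at -0.87 to -0.53, and 1 of them passed among all probe sets (-0.81, adjusted p = 0.0187 from limma).

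Igf1 was measured by 4 probe sets. All 4 were lower in mutants in both mandible regions, by 0.73 to 0.88 distally, where 3 passed the test among all probe sets, and by 0.84 to 1.12 proximally, where all 4 passed. In the distal maxilla 2 of the 4 were higher and 2 lower, with values of -0.17 to 0.15. Ordered by mean, Igf1 was highest in the control proximal mandible at 13.24, followed by the control distal mandible, and these neighbours did not overlap. The control proximal maxilla (12.62), mutant proximal mandible (12.39), mutant proximal maxilla (12.24) and mutant distal mandible (12.18) followed, each overlapping the next. The control and mutant distal maxilla were lowest, at 11.73 and 11.56, and overlapped each other.

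Igf1r, the signalling receptor, had group means from 10.55 to 10.97, a range of 0.42 beside the median of 0.38 over all genes tested. No regional genotype difference was called. In the distal maxilla the controls read 10.87, 10.58 and 10.45 and the mutants 11.17, 10.81 and 10.94, with an overlap of the highest control over the lowest mutant. The difference was 0.34 ± 0.12 (SE; adjusted p = 0.116 from limma). Of the 5 probe sets of Igf1r, all 5 were higher there and 2 passed the test, at 0.31 and 0.42. In the other regions Igf1r differed by -0.054 to 0.057, and the 95% interval of the mean over regions was -0.048 to 0.20.

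Igf2r, the clearance receptor, had the lowest adjusted p of the 9 genes in both regions of the mutant mandible. Its control distal mandible arrays read 12.50, 12.59 and 12.60 and the mutant arrays 11.93, 11.59 and 12.01. All mutants lay below all controls, with a fall by 0.72 ± 0.15 (SE), or 1.65-fold (adjusted p = 0.00249 from limma). In the proximal mandible the 3 controls were close together, at 12.70, 12.71 and 12.73, and the mutants read 11.97, 11.69 and 12.04. That fall was by 0.82 ± 0.15 (SE), or 1.76-fold (adjusted p = 0.000567 from limma). Both calls held without any 1 of the 6 arrays of their comparison, with adjusted p of 0.00401 to 0.0223 distally and 0.000788 to 0.00537 proximally from limma, and both Igf2r probe sets passed in both regions.

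In the maxilla the Igf2r controls were already near the mutant level of the mandible. The distal maxilla gave 11.89, 11.77 and 11.55 in controls and 11.68, 11.23 and 11.93 in mutants, which overlapped (difference -0.12, 95% interval -0.43 to 0.18). The proximal maxilla gave 12.01, 12.11 and 12.08 in controls and 11.70, 11.48 and 11.96 in mutants, without overlap but short of the threshold (-0.35, adjusted p = 0.125 from limma). Without both mutant maxilla arrays numbered 3 the proximal difference passed, at -0.48 (adjusted p = 0.0425 from limma). The genotype effect on Igf2r was larger in the mandible by 0.53 ± 0.15 (SE; adjusted p = 0.0349 from limma). That call ended in 13 of 24 omissions of a single array, with values of -0.53 to -0.45: control distal mandible 2 or 3, any control proximal mandible array, control distal maxilla 3, control proximal maxilla 1 or 3, mutant distal mandible 2, mutant proximal mandible 2, mutant distal maxilla 1 or 3, or mutant proximal maxilla 3. It also ended without both mutant maxilla arrays numbered 3 (-0.39, adjusted p = 0.0838 from limma) and with the mean of both probe sets (-0.43, adjusted p = 0.0553 from limma). Only 1 of the 2 Igf2r probe sets passed this test. An antisense transcript, Airn, is transcribed from the Igf2r locus, and 1 further probe set shared between the pair was not used.

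**Figure D2:**
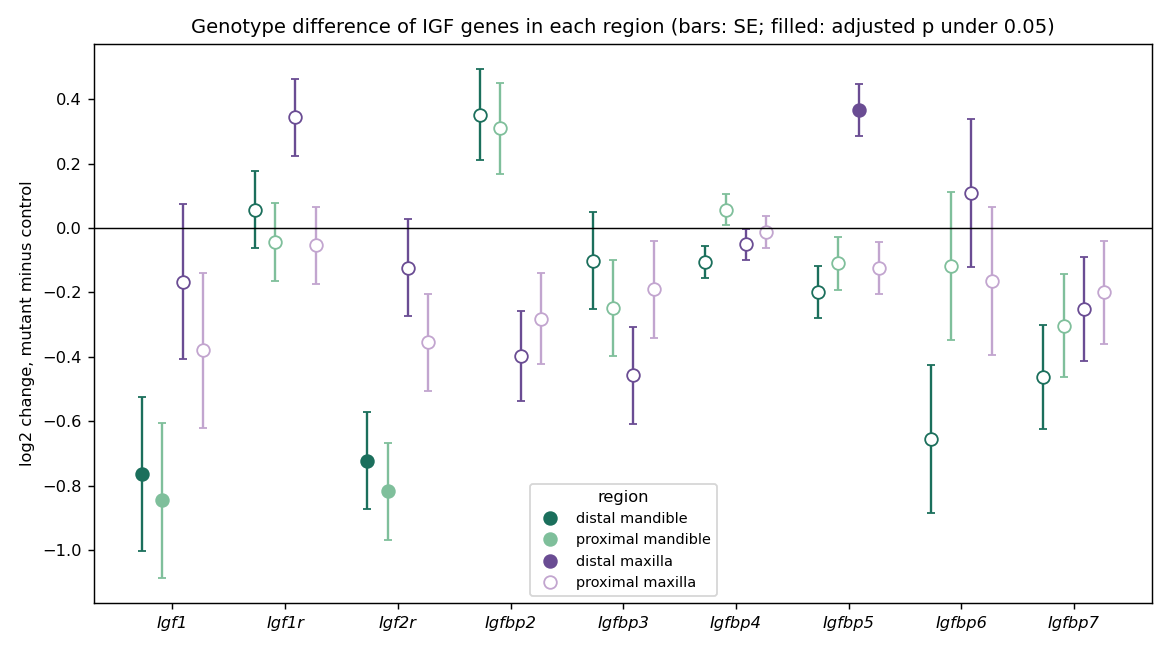
Log2 difference of mutant minus control (vertical axis, with standard errors of the fit) for the 9 genes (horizontal axis) in the 4 regions; filled points passed an adjusted p of 0.05. Igf1 and Igf2r are filled in both mandible regions, and Igfbp5 is filled in the distal maxilla at 0.37.

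Among the binding proteins, only Igfbp5 was called in any of the 4 regions. It binds IGFs and components of bone matrix. In the distal maxilla its controls read 13.04, 13.09 and 12.97 and its mutants 13.40, 13.34 and 13.47. All mutants lay above all controls, with a rise by 0.37 ± 0.081 (SE), or 1.29-fold (adjusted p = 0.0212 from limma), and both of its probe sets passed there, at 0.37 and 0.45. Igfbp5 did not pass in the other regions, where the differences were -0.20 (distal mandible), -0.11 (proximal mandible) and -0.13 (proximal maxilla). The distal maxilla call ended without control array 3 (0.33, adjusted p = 0.118 from limma), without mutant array 1 (0.37, adjusted p = 0.0819 from limma), and in a fit of the 6 arrays compared (adjusted p = 0.0563 from limma). The genotype effect on Igfbp5 differed between the jaws by -0.28 ± 0.081 (SE; adjusted p = 0.0467 from limma), and that call ended in 17 of 24 omissions of a single array. It held without control distal mandible 1, control distal maxilla 2, control proximal maxilla 2, mutant distal mandible 2, mutant proximal mandible 3, mutant distal maxilla 2 or mutant proximal maxilla 3. It also ended without the filter, with quantile normalization repeated, with the sex score and without both mutant maxilla arrays numbered 3 (adjusted p of 0.0539 to 0.0641 from limma).

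Igfbp2, whose gene lies next to Igfbp5 on chromosome 1, had the largest difference between jaws in its genotype effect among the strongest probe sets of the 9, although 2 of the weaker Igf1 probe sets differed more (-0.87 and -0.81). Distal mandible controls read 12.53, 12.77 and 12.64 and the mutants 12.76, 13.19 and 13.05, and proximal mandible controls read 11.97, 11.81 and 12.25 and the mutants 12.21, 12.46 and 12.29. The mutant means were higher, by 0.35 and 0.31, with 1 control above the lowest mutant in each region. Distal maxilla controls read 13.09, 13.08 and 13.22 and the mutants 12.72, 12.89 and 12.59, all below the controls. Proximal maxilla controls read 12.53, 12.66 and 12.93 and the mutants 12.55, 12.64 and 12.08, which overlapped. The differences there were -0.40 and -0.28, and none of the 4 regional differences passed (adjusted p of 0.104 to 0.218 from limma). The difference of these responses, mandible minus maxilla, was 0.67 ± 0.14 (SE; 95% interval 0.37 to 0.97; adjusted p = 0.008 from limma) and held without any 1 of the 24 arrays. Averaged over regions the genotype difference of Igfbp2 was -0.004, with an interval of -0.15 to 0.15. Only 1 probe set of Igfbp2 was tested, so no second one could be compared.

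Igfbp3, the main IGF carrier of serum, was lower in mutants in the mean of the regions, by 0.25 ± 0.076 (SE; adjusted p = 0.0128 from limma). Its distal maxilla controls read 11.73, 11.69 and 12.05 and its mutants 11.20, 11.38 and 11.53, without overlap. The difference there was -0.46 (adjusted p = 0.104 from limma). In the proximal mandible the controls read 12.41, 12.39 and 12.60 and the mutants 12.27, 12.10 and 12.29, also without overlap, at -0.25. In the proximal maxilla mutant array 3 read 11.88, above every control, while the other mutants read 11.19 and 11.00 against 11.59, 11.60 and 11.46. Without that array the difference was -0.45 (adjusted p = 0.0206 from limma) in place of -0.19.

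Igfbp7, a secreted protein with low affinity for IGFs that is abundant in vessel walls, was lower in mutants in all 4 regional means. The differences were -0.46, -0.30, -0.25 and -0.20 in the distal mandible, proximal mandible, distal maxilla and proximal maxilla. Their mean was -0.30 ± 0.081 (SE; adjusted p = 0.00572 from limma), and no single region passed. Distally in the mandible the controls read 10.79, 10.75 and 11.11 and the mutants 10.26, 10.53 and 10.47, without overlap. The second Igfbp7 probe set did not share the difference, at 0.0014 in the mean of regions (adjusted p = 0.986 from limma among all probe sets), and the last of the 3 lay under the filter.

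Igfbp4, which inhibits IGF action until pappalysin cuts it, was not called in any comparison, and its 24 arrays lay between 13.57 and 13.80, where the highest value of the whole table was 14.86. None of its 6 probe sets was called in any comparison, but the weakest, with a mean of 10.74, gave 0.37 in the proximal maxilla (adjusted p = 0.162 from limma among all probe sets) against -0.013 for the strongest. In the distal mandible the mutants, at 13.63, 13.68 and 13.66, lay below the controls, at 13.80, 13.77 and 13.71, by 0.10 (adjusted p = 0.155 from limma). Igfbp6, which prefers IGF2, was close to background, with arrays from 6.18 to 8.01 against filter levels of 6.33 to 6.47. In the distal mandible its controls read 7.17, 6.95 and 7.26 and its mutants 6.41, 6.18 and 6.82, without overlap, and 1 of the mutant arrays was under its own filter level. That difference was -0.65 ± 0.23 (SE; adjusted p = 0.0606 from limma).

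By region, 2 of 9 genes were called in the distal mandible, both lower, where 16.0% of all genes tested were called and 7.98% were lower. The proximal mandible had the same 2, against 19.9% called and 10.4% lower, the distal maxilla 1 higher, against 2.96% called and 1.84% higher, and the proximal maxilla 0, against 10.5% called. For that count of 0 from limma, 1 gene, Igf2r, had an unadjusted p under 0.05, and a fit with array weights called 1. In the mean over regions 4 of 9 were called, all lower, beside 40.6% of all genes (15.3% lower). The genotype effect differed between jaws for 3 of 9 genes, beside 6.76% of all genes, and between ends for 0 of 9 from limma, beside 0.115%, with 2 genes at an unadjusted p under 0.05. Arrays of the genotypes did not overlap for 5, 3, 3 and 1 of the 9 genes in the distal mandible, proximal mandible, distal maxilla and proximal maxilla, beside 42.4%, 35.2%, 19.9% and 28.8% of all genes. The median difference of the 9 genes was -0.20, -0.12, -0.12 and -0.19 in these regions, and that of all genes 0.038, 0.039, 0.041 and 0.026.

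The mean over regions was sensitive to how arrays were combined. When the 4 regions of each replicate number were averaged first, which leaves 3 values per genotype, Igf1 gave the same -0.54 with an adjusted p of 0.0754 from limma and Igfbp3 -0.25 with 0.0862, and 2 of 9 genes were called. Igfbp3 also missed the threshold with a random block of genotype and number (adjusted p = 0.0698 from limma). With the number as a block in that fit, 3 of 9 were called, and Igf1 gave 0.0658. Over all 24 arrays, Igf1 had fallen by 0.54 ± 0.12 (SE; adjusted p = 0.00166 from limma) and Igf2r by 0.50 ± 0.073 (SE; adjusted p = 2.53e-05 from limma). In the mutants, array 2 was the lowest for both Igf1 and Igf2r in all 4 regions.

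In control jaws, 4 of the 9 genes differed between mandible and maxilla. Igf1 was higher in the mandible than in the maxilla by 0.92 ± 0.17 (SE), or 1.89-fold (adjusted p = 0.000336 from limma), with all 4 probe sets called. Igf2r was higher by 0.74 ± 0.10 (adjusted p = 1.82e-05 from limma) and Igfbp3 by 0.65 ± 0.11 (adjusted p = 9.48e-05 from limma), and for both every mandible array lay above every maxilla array. Igfbp2 was lower in the mandible, by 0.59 ± 0.10 (adjusted p = 0.00014 from limma). These 4 of 9 stand beside 34.7% of all genes tested that were called, and the 2 of 9 without overlap beside 15.1%. Igfbp7 gave -0.30 (adjusted p = 0.0509 from limma), and passed with the replicate number as a replicate block (adjusted p = 0.0377 from limma). The second Igfbp7 probe set went the other way, at 0.11, and was not called. The check over all genes counted these arrays as paired, with a lowest r of 0.12, and the 3 other versions of that check did not. The control and mutant comparisons share the control arrays, so the values of a gene in both are not independent.

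Between the ends of the control mandible, Igfbp7 differed most: its distal arrays read 10.79, 10.75 and 11.11 and its proximal arrays 9.80, 9.66 and 9.94. No distal array came near a proximal one, and the difference was 1.08 ± 0.16 (SE), or 2.12-fold (adjusted p = 0.000369 from limma). The second Igfbp7 probe set gave 0.044 (adjusted p = 0.935 from limma among all probe sets). Igfbp2 was also higher distally, at 12.53, 12.77 and 12.64 against 11.97, 11.81 and 12.25, by 0.64 ± 0.14 (SE; adjusted p = 0.0107 from limma). Its call ended without distal array 2 (0.58, adjusted p = 0.0668 from limma) or proximal array 2 (0.54, adjusted p = 0.0719 from limma). These were 2 of 9 genes, both higher distally, beside 5.45% of all genes called and 2.91% higher, and 6 of 9 did not overlap, beside 31.9%.

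Between the ends of the control maxilla, 3 of 9 genes were called, all lower distally, beside 10.9% of all genes called and 5.99% lower, and 6 of 9 did not overlap, beside 25.4%. Igf1 was lower distally by 0.89 ± 0.24 (adjusted p = 0.0234 from limma), with distal arrays at 11.55 to 11.91 and proximal arrays at 12.34 to 12.93. Igfbp5 was lower distally by 0.38 ± 0.081 (adjusted p = 0.00472 from limma), and its mutant distal maxilla mean of 13.40 was close to the control proximal maxilla mean of 13.41. Igfbp6 was lower distally by 0.84 ± 0.23 (adjusted p = 0.0233 from limma), from 7.44, 8.01 and 7.32 proximally to 6.68, 6.87 and 6.69. The Igf1 call ended without distal array 1 or 2 or proximal array 1 or 2 (-0.91 to -0.73, adjusted p of 0.0543 to 0.109 from limma). The Igfbp6 call ended without distal array 1 or 3 (both -0.81) or proximal array 2 (-0.63, adjusted p = 0.125 from limma).

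**Figure D3:**
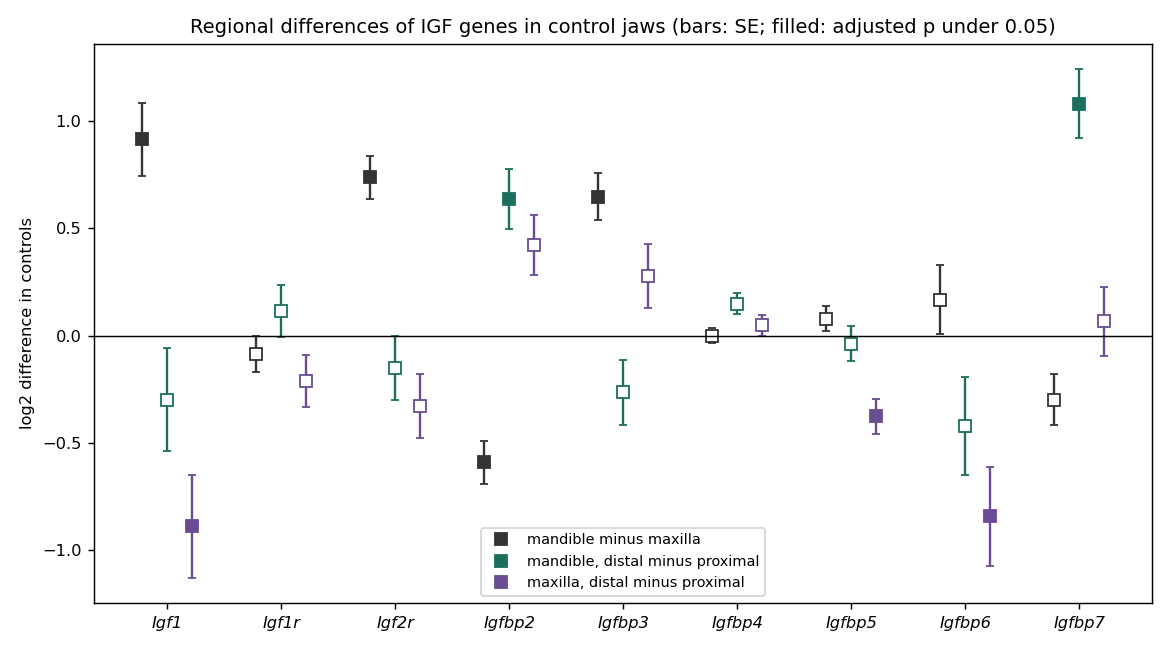
Log2 differences between regions of control jaws (vertical axis, with standard errors of the fit) for the 9 genes (horizontal axis): mandible minus maxilla (black), distal minus proximal mandible (green) and distal minus proximal maxilla (purple). Filled squares passed an adjusted p of 0.05; Igfbp7 stands at 1.08 between the ends of the mandible and Igf1 at 0.92 between the jaws.

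Around these 9 genes, 38 other genes of IGF signalling were listed, of which 32 were tested. Igfbp1 was under the filter, and the rest were not analysed here. Of these, 3 were higher and 4 lower in the mutant distal mandible, and 3 and 5 at its proximal end, while the proximal maxilla had 5 higher and 1 lower and the distal maxilla 2 higher. The shares of all genes called in these regions were 16.0%, 19.9%, 10.5% and 2.96%. In the mean of regions 9 of 32 were higher and 6 lower, where 40.6% of all genes were called, and the median over the list was 0.00018, beside 0.022 for all genes. The ligand Igf2 was at 14.09 to 14.53 on all arrays and fell by 0.10 ± 0.026 in the mean (adjusted p = 0.00521 from limma). The relay genes Irs1 and Irs2, docking proteins of the receptor, moved in opposite directions in the mean. Irs1 was lower by 0.27 ± 0.049 and Irs2 higher by 0.34 ± 0.066 (adjusted p = 0.000214 and 0.000455 from limma). By region, Irs1 was called in the distal mandible and proximal maxilla, and Igf2 and Irs2 in the distal mandible only. In the distal maxilla the Irs1 mean was 12.03 in controls and 12.06 in mutants. The values in the mean count all 24 arrays separately, and for these 3 genes no merged values are given here.

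The proteases that cut binding proteins gave the largest differences of the list. Pappa encodes pappalysin-1, which cuts IGFBP4, and was higher in mutants in the mean by 0.95 ± 0.10 (adjusted p = 5.86e-07 from limma). Its control proximal mandible arrays read 7.64, 6.93 and 7.32 and the mutant arrays 8.79, 8.61 and 8.56, without overlap, a rise by 1.36 ± 0.19 (adjusted p = 7.15e-05 from limma). Pappa2 encodes pappalysin-2, which cuts IGFBP3 and IGFBP5, and was lower in mutants in the mean by 1.24 ± 0.13 (adjusted p = 1.13e-06 from limma). Pappa2 read 10.86, 10.87 and 11.14 in distal mandible controls and 8.60, 8.71 and 9.42 in mutants, and proximally 10.18, 10.09 and 9.95 against 8.12, 8.25 and 9.09. Pappa2 fell by 2.05 ± 0.27 distally and fell by 1.59 ± 0.27 proximally (adjusted p = 7.46e-05 and 0.000345 from limma). The mandible minus maxilla difference of the Pappa2 response was -1.16 ± 0.27 (adjusted p = 0.0135 from limma).

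Adam12, a metalloprotease reported to cut IGFBP3 and IGFBP5, read 10.31, 10.52 and 10.63 in the control distal mandible and 9.57, 8.64 and 9.66 in the mutant, a fall by 1.19 ± 0.25 (adjusted p = 0.00323 from limma). Htra1, a serine protease that can cut IGFBP5, fell by 1.28 ± 0.28 in the proximal mandible (adjusted p = 0.0031 from limma), from 10.61, 10.72 and 10.61 to 9.25, 9.30 and 9.54. In neither case did the genotypes overlap. Igf2bp3, an RNA-binding protein that binds Igf2 transcripts, was higher in all 4 regions, by 0.28 and 0.38 at the distal and proximal end of the mandible and by 0.29 and 0.52 at those of the maxilla. Its mutant arrays lay above its control arrays in each region, with a mean rise by 0.37 ± 0.032 (adjusted p = 1.16e-07 from limma). Igf2bp1, of the same family, rose by 0.34 ± 0.047 in the mean (adjusted p = 1.79e-05 from limma) and by 0.57 ± 0.095 in the proximal maxilla. Gab1, an adaptor of the receptor kinase, rose by 0.35 ± 0.068 proximally in the maxilla and by 0.23 ± 0.068 proximally in the mandible, and its end interaction of -0.37 (adjusted p = 0.0455 from limma) ended in 17 of 24 omissions of a single array (adjusted p of 0.0523 to 0.103 from limma). It held without control distal maxilla 2, mutant distal mandible 3, mutant proximal mandible 3, mutant distal maxilla 3 or any mutant proximal maxilla array, and also ended without the filter, with the mean of probe sets and with the sex score. The distal maxilla calls of Pappa (0.96) and Igf2bp3 (0.29) ended without control array 3 (adjusted p = 0.0623 and 0.1 from limma) or mutant array 1 (adjusted p = 0.0932 and 0.115 from limma). They also ended in a fit of only the arrays compared (adjusted p = 0.229 and 0.282 from limma), as did the proximal maxilla calls of Gab1 (adjusted p = 0.0874 from limma) and Igf2bp1 (adjusted p = 0.0641 from limma).

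**Figure D4:**
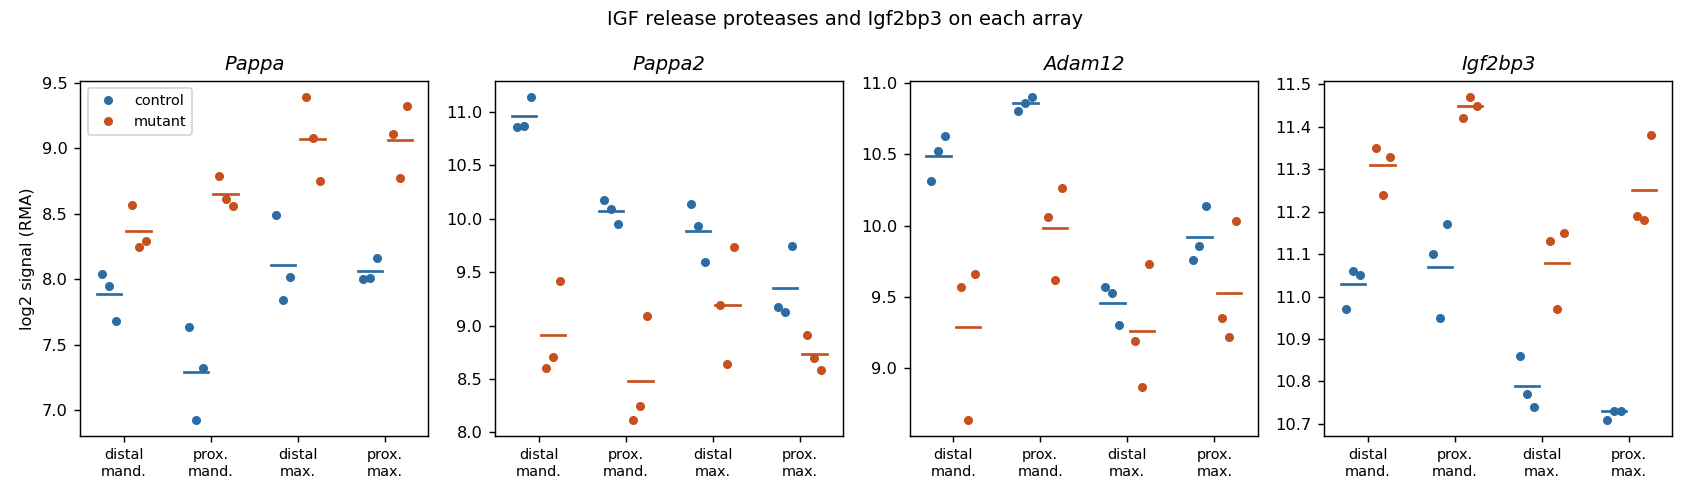
Log2 signal (vertical axis) of Pappa, Pappa2, Adam12 and Igf2bp3 on each of the 24 arrays, by region (horizontal axis; abbreviated as mand., max. and prox.) and genotype (blue, control; orange, mutant); lines are means of 3 and the vertical scale differs between panels. Pappa and Igf2bp3 were higher and Pappa2 lower in the mean of the mutants, and the Pappa2 mutant mandible arrays reach 9.42 where the lowest control mandible array is at 9.95.

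Between regions of control jaws, 9 of the 32 genes were higher in the mandible and 2 lower, beside 34.7% of all genes called, and 1 and 2 were lower distally in the mandible and maxilla, beside 5.45% and 10.9%. Higher in the mandible were Igf2 (0.25 ± 0.036), Igf2bp1 (0.46 ± 0.067), Igf2bp3 (0.29 ± 0.046) and Grb10 (0.21 ± 0.034), an adaptor that restrains the receptor (adjusted p of 2.67e-05, 2.86e-05, 5.18e-05 and 8.56e-05 from limma). Igf2bp1 was lower in the distal than the proximal mandible by 0.36, a call that ended without any 1 of the 6 arrays (adjusted p of 0.0719 to 0.0966 from limma). With the mean of all probe sets that call ended as well (-0.29, adjusted p = 0.0507 from limma). In the distal maxilla Irs1 was lower by 0.49 ± 0.10 (adjusted p = 0.00245 from limma). Igf2 was lower there by 0.18, which ended without distal array 3 or proximal array 1 or 2 (adjusted p of 0.0857 to 0.187 from limma). This Igf2 call also ended with the mean of all probe sets (-0.2, adjusted p = 0.319 from limma).

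The genes whose profile over the 24 arrays was most like each of the 9 were ranked by Pearson correlation, as a description, since arrays share groups and array-wide differences. For Igf1 these were Colec12, Tubb6 and Myom2, a muscle M-band protein, each at r = 0.94 over arrays and 0.82 to 0.86 within groups. For Igf2r they were Adam12, Itpripl2 and Tacc1, each at 0.94. Igfbp2 was most like Aqp3, Hspb8 and Tmem54 (0.92 to 0.93), and Igfbp3 like Jazf1, Kremen1 and Nme2 (0.87 to 0.90). Igfbp6 was most like Dhh, Ntrk3 and Zeb1 (0.89 to 0.90), Igfbp7 like Fah, Tenm3 and Afdn (0.85 to 0.86) and Igf1r like Tnrc6b, Tent4b and Kmt2c (0.85 to 0.90). Igfbp4 and Igfbp5, the genes of narrow range, had lower best values. These were with Tubb1, Lim2 and Khsrp (0.66 to 0.78) for Igfbp4 and with Mpzl1, Plce1 and Cnnm2 (0.76 to 0.77) for Igfbp5. Within groups the likeness did not hold for Igfbp7 with Tenm3, at -0.11. It was 0.42 and 0.52 for Igfbp5 with Plce1 and Cnnm2, and the other values within groups were 0.59 to 0.93. Among the 9 themselves, Igf1 and Igf2r were the most alike, at r = 0.90 over arrays, 0.93 over the 8 group means and 0.79 within groups, and Igf1 and Igfbp2 ran opposite, at -0.67.

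The dissected pieces hold several tissues, and marker lists of these moved along with some IGF genes. In such bulk samples fewer cells of a type and less RNA per cell cannot be told apart. All 8 skeletal muscle markers tested were higher in the control mandible than the control maxilla. In mutants 4 of the 8 were lower in the distal mandible and 2 in the proximal mandible, and the median of the list was -0.12 in the distal and -0.0051 in the proximal maxilla. The mean log2 signal of the list was 10.30 to 11.05 in the control distal mandible and 7.01 to 8.98 in the mutant, and 10.69 to 11.61 and 9.50 to 10.56 in the proximal mandible. Over the 24 arrays Igf1 correlated with this mean at r = 0.91, and within groups at 0.82. The highest mutant maxilla arrays for Igf1, both numbered 3, were also the highest for muscle markers, at 8.37 distally and 10.53 proximally.

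Of 5 tendon markers, 4, 5, 1 and 2 were lower in the mutant distal mandible, proximal mandible, distal maxilla and proximal maxilla. Their mean was 9.79 to 10.03 on control mandible arrays and 7.46 to 8.26 on mutant ones. Igf2r correlated with this tendon mean at 0.91 over arrays and 0.44 within groups. Within groups Igf2r followed the means of macrophage (0.75), muscle (0.68), osteoblast (0.54) and endothelium (0.5) markers more closely. Of 7 macrophage markers, 4 and 5 were lower in the distal and proximal mandible. Igfbp6 correlated with their mean at 0.80 over arrays and 0.83 within groups, and with the muscle mean at 0.72 and 0.84. Osteoblast markers were lower for 5, 4 and 2 of 5, and chondrocyte markers for 5, 2 and 6 of 7, in the distal mandible, proximal mandible and proximal maxilla. Igfbp3 ran opposite to neuron markers, at -0.89 over arrays and -0.67 within groups, and 5 of 6 of these were lower in the control mandible than in the control maxilla. With chondrocyte markers Igfbp3 gave 0.0035 over arrays and -0.76 within groups. Endothelial markers were lower for 3 and 4 of 7 in the distal and proximal mandible, and Igfbp7 correlated with their mean at 0.0095 over arrays and 0.44 within groups. In the maxilla 4 of 5 nasal epithelium markers were lower in mutants at both ends, and 4 of 6 epithelial markers were higher in the proximal maxilla. Igfbp2 correlated with the muscle mean at -0.72 over arrays and -0.48 within groups. With the epithelium mean it gave 0.59 and 0.16, and with the nasal epithelium mean 0.53 and 0.57. The part of these tissues in the differences of the IGF genes was not tested.

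**Figure D5:**
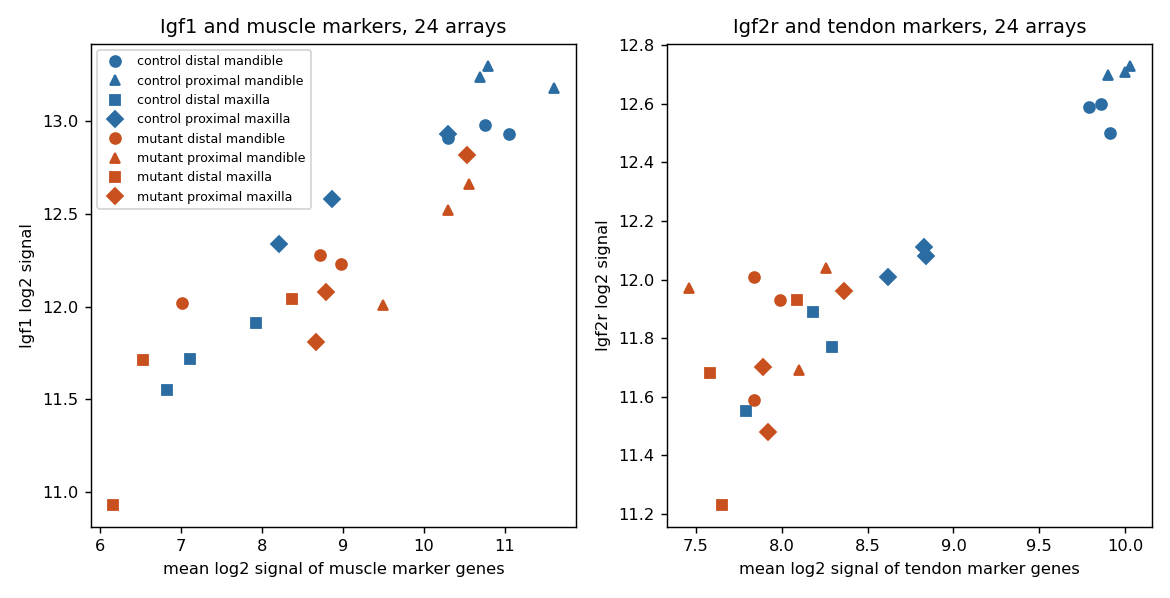
Igf1 against the mean of 8 muscle markers (left) and Igf2r against the mean of 5 tendon markers (right), both axes in log2 signal, on each of the 24 arrays; colour gives genotype (blue, control; orange, mutant) and shape the region. The control mandible arrays lie at the upper right of both panels, with tendon means of 9.79 or more. The correlations are 0.91 in each over arrays, and 0.82 (left) and 0.44 (right) within groups.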

How the data were processed

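RNA from 24 dissected jaw samples was labelled from 5 µg and hybridised to single-colour mouse oligonucleotide arrays, per the labels' protocols. The deposited values are log2 signals after RMA, per the submitters' processing notes, which give no version. The base was read from the range of 3.29 to 14.86, and the base itself is not stated. With no detection calls, background was judged from a filter: above the 40th percentile of the array on at least 3 arrays, which 13942 of 18193 genes passed. The number of arrays limits the precision.

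Probe sets with 1 symbol (34945 of 45101) were used, and each gene was represented by the one with the highest mean. With limma 3.58.1 (R 4.3.3; eBayes with a trend) a single fit of the 8 group means covered the 24 arrays, with two-sided p-values adjusted by Benjamini-Hochberg over all genes tested in each of 10 comparisons. The mean of 4 regions and the jaw and end interactions are contrasts of that fit. Other tables used Python 3.11.15 and pandas 2.3.3. The fit was tested on simulated data.

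The genes, the marker and pathway lists, the comparisons and the alternatives were chosen with earlier results of these data known. Beside the 9 genes and Tgfbr1, the text names in each comparison up to 4 called pathway genes with the largest statistic, and the 3 genes most like each of the 9; the regional and mean values of further called pathway genes were named after their values were seen.

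Replicate numbers occur in every group. They were taken to pair samples where same-numbered arrays' residuals over all genes correlated above 0.1 for each number. That held for the mean over regions (lowest r 0.13), the control jaws (0.12) and the ends of control mandibles (0.33), and not for the distal mandible (0.02), proximal mandible (0.05), distal maxilla (0.09), proximal maxilla (-0.17) or ends of control maxillae (0.03), whose samples by this check share only a number. Of 4 versions of this check, made after counts of calls under the block had been seen, this one uses all genes as they are. The versions disagreed. Without Xist and Y-linked genes, with residuals divided by the gene's SD, and with Spearman's rho, the lowest value was 0.06, 0.03 and 0.02 for the control jaws, 0.14, 0.01 and 0.06 for the distal mandible, 0.19, 0.28 and 0.25 for the proximal mandible, and 0.21, 0.11 and 0.18 for the distal maxilla. Alternatives were other normalization, filters, weights, blocks, probe sets and arrays left out.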

Additional observations from a re-analysis of the deposited data

Results flagged for a closer look

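The genotype effect differed between mandible and maxilla for 3 of the 9 genes by the test of that difference in limma. For Igfbp2 the difference, mandible minus maxilla, was 0.67 ± 0.14 (SE; adjusted p = 0.008 from limma), from 0.35 and 0.31 in the mandible and -0.40 and -0.28 in the maxilla. For Igf2r it was -0.53 ± 0.15 (SE; adjusted p = 0.0349 from limma), from -0.72 and -0.82 in the mandible and -0.12 and -0.35 in the maxilla. For Igfbp5 it was -0.28 ± 0.081 (SE; adjusted p = 0.0467 from limma), from -0.20 and -0.11 in the mandible and 0.37 and -0.13 in the maxilla. Without both mutant maxilla arrays numbered 3, Igfbp2 was the only one of these called.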

How the results depend on the processing

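Of 21 called values of single genes, 227 of 276 fits without 1 array kept the call, 49 lost it and 0 reversed. The losses were uneven. Calls in the mean of regions and between the control jaws, which use more arrays, lost 0 fits for every gene called. The jaw interaction lost 17 of 24 for Igfbp5 and 13 of 24 for Igf2r, and Igf1 in the distal mandible lost 6 of 6. Of 210 fits under other settings 198 kept the call, and of 27 with another probe set 23 did, 3 lost it and 1 reversed. Of the 27 named pathway values, 39 of 566 fits lost the call. The second Igfbp7 probe set gave 0.0014 in the mean of regions, against -0.30, and the cause was not tested.

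In the distal mandible, where 2 genes were called, array weights gave 6, the replicate block 4, a fit of only the arrays compared 5, the sex score 1 and the fit without both mutant maxilla arrays numbered 3 gave 4. In the distal maxilla (1 called) these gave 2 with weights, 3 with the block, 0 with only the arrays compared, 2 without those arrays, and 2 with the mean of all probe sets. In the proximal maxilla (0 called) weights gave 1 and leaving out those arrays gave 2. Averaging the 4 regions of a number first gave 2 called in the mean of regions, against 4, and 3 with the replicate block. Leaving out those arrays gave 1 in the jaw interaction, against 3, and 5 between the ends of the control maxilla, against 3, as did the random block. A fit of only the arrays compared gave 6 between the ends of the control mandible, against 2. By the check over all genes the samples of the distal mandible and distal maxilla share only a number, but 3 of 4 versions of that check counted the distal maxilla as paired and 1 the distal mandible. The 4 more calls under the block were Igfbp6 (-0.65, adjusted p = 0.027 from limma) and Igfbp7 (-0.46, 0.0398) in the distal mandible and Igf1r (0.34, 0.0179) and Igfbp3 (-0.46, 0.0448) in the distal maxilla. Igfbp2 between the ends of control maxillae also passed under it (0.43, 0.0488), and in the fit of all arrays the block changed no other call than those and Igfbp7 between the control jaws.

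Leaving out 1 array gave 1 to 2 called in the distal mandible, 1 to 3 in the proximal mandible, 0 to 2 in the distal maxilla, 0 to 1 in the proximal maxilla, 1 to 3 in the jaw interaction, 1 to 2 between control mandible ends and 1 to 4 between control maxilla ends. The cause of these changes was not tested. Fits of only the arrays compared were not made for the mean and the interactions, which use all arrays. Leaving out both arrays numbered 3 was planned after earlier results. Signals near the filter level, as for Igfbp6, limit what can be read from them.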
